A study of Mus musculus with 12 samples.

Results

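Eef1a1, Eef1b2, Eef1d, Eef1g, Eef2, Pabpc1, Tpt1, Npm1, Naca and Rack1 encode 5 translation elongation factor subunits and 5 further proteins of translation and growth, and they are counted among the non-ribosomal members of the terminal oligopyrimidine (TOP) class of mRNAs. They were taken by symbol from a table with 1 line per alignment of a sequenced RNA molecule, as lines that carried the quality tag PASS and were classed as mRNA. Of the PASS lines, 0.176% repeated a read. All 10 genes were found, with 132901 of 4274320 kept reads (3.11%), among 14042 genes with at least 1 kept read. Eef1a1 alone gave 56592 of these reads (42.6%) and Rack1 17789, whereas Eef1d gave 1716, with 53 to 354 reads per library. All 10 genes passed the read filters of the abundance and of the tail comparisons.

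The cells were P19, a wild-type mouse embryonal carcinoma line that can be driven to neurons, so that every library came from 1 cell line. Undifferentiated cells (D0) were sampled before treatment, and differentiating cells were sampled after 2, 4 and 6 days (D2, D4 and D6) in NDiff medium with 500 nM retinoic acid on poly-L-lysine-coated plates, with 3 biological replicates on each of the 4 days. Total RNA was isolated with TRIzol and oligo(dT)-selected, and was read as native RNA on nanopores, so that each read reports a transcript together with the length of its own poly(A) tail. The question put to these data here is how the amount and the tail length of the mRNAs of elongation factors and of other non-ribosomal TOP genes move over the 6 days, and where they part from the ribosomal protein (RP) mRNAs.

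TOP mRNAs begin with a cytosine at the cap followed by an unbroken run of pyrimidines, and through this run their translation is tied to the mTOR pathway and to the RNA-binding protein LARP1. In each elongation cycle eEF1A brings aminoacyl-tRNA to the ribosome, the eEF1B complex reloads eEF1A with GTP, and eEF2 moves the ribosome along the mRNA. The poly(A) tail is bound by the cytoplasmic poly(A)-binding protein, and its length bears on the stability and the translation of the message in a way that depends on the cell.

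To show the TOP feature itself, up to 24 bases that end just before the commonest first aligned base of the reads of each main transcript are given 5′ to 3′ as RNA-sense DNA letters, from the GENCODE vM21 transcripts on GRCm38, with the longest pyrimidine run in capitals. Direct RNA reads usually stop short of the cap, so that the window holds the bases next to the point where reads end rather than a mapped start site. All 10 windows lie in exon 1, before the start codon.
Eef1a1, chr9:78481659-78481682, minus strand: ccttggacgTTCTTTTTCgcaacg
Eef1b2, chr1:63177118-63177141, plus strand: acgctctgggTCCTTTTTTTCCCT
Eef1d, chr15:75909296-75909319, minus strand: gcgggcgCCCTCCCTCTCCTTTgc
Eef1g, chr19:8967188-8967211, plus strand: ccaCCCCCTTTCTCTgcggaatca
Eef2, chr10:81176634-81176657, plus strand: gacgtcagcggTCTCTTCCgccgc
Pabpc1, chr15:36608961-36608973, minus strand: CCCCTTCTCCCCg
Tpt1, chr14:75845323-75845346, plus strand: gcgtcggCCTTTTCCgcccgctcc
Npm1, chr11:33163065-33163088, minus strand: cccgcgTCCTTTCCTTggcgtgat
Naca, chr10:128035632-128035655, plus strand: gggctcgctcgTTCTCTTTCTgcc
Rack1, chr11:48800360-48800373, plus strand: CTTTTTCTCCacag
Each of the 10 windows held a run of at least 8 pyrimidines, and the runs ended 0 to 9 bases before the commonest first base. Runs of at least 8 were found in 87.2% of 78 RP genes and in 9.31% of 3878 other genes by the same procedure. The genes were selected for belonging to the TOP class, so that this difference is a description. Few reads of the 2 longest messages came near their 5′ end, with 1.65% of Eef2 reads and 5.73% of Pabpc1 reads starting within 3 bases of the commonest first base.

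Kept reads per library ranged from 120326 (D2 replicate 1) to 613756 (D0 replicate 2). The reads came from 13 sequencing runs, each of which held 1 day only, so that day and run cannot be told apart. The names of the D0 runs call the cells undifferentiated but also carry a D2 mark, the names of 2 of the 4 D6 runs give no day, and libraries were grouped by the sample labels. Of 8 pluripotency markers, 5 had reads, and their summed level was 1996 to 2230.2 CPM (scaled reads per 1000000 kept reads) at D0 and 177 to 218 CPM at D6. Dppa5a, Zfp42 and Fgf4 had none. The 9 neuronal markers summed to 548 to 569 CPM at D0 and to 2723 to 2871 at D6, and the 5 neural progenitor markers to 54.6 to 83.8 and to 883 to 1079. Glial markers (3 of 5 without reads, S100b, Aqp4 and Olig1) reached at most 36.8 CPM, and endodermal and mesodermal markers at most 29.4. The libraries are bulk RNA, and fewer cells of a type and less RNA per cell cannot be told apart in any value below.

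The mRNAs of 9 of the 10 genes fell between D0 and D6. Npm1, which encodes the nucleolar chaperone nucleophosmin, fell furthest, to 0.255-fold (95% interval 0.227 to 0.285) of its D0 level. The elongation factor mRNAs fell to between 0.406-fold (Eef1d) and 0.606-fold (Eef2). Tpt1, which encodes the growth-related protein TCTP, did not pass the test at D6 and was higher than at D0 at D4. Together the 10 genes took 3.69 ± 0.0568 percent of the kept reads on D0, 3.28 ± 0.0659 on D2, 2.84 ± 0.0535 on D4 and 2.42 ± 0.0440 on D6 (mean ± SD, n = 3 libraries per day).

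Levels are given as CPM in replicates 1, 2 and 3. One molecule gives 1 read whatever its length, so that CPM can be compared between genes without a length correction. Log2 changes, their standard errors (SE) and Benjamini-Hochberg adjusted p-values come from limma-voom fitted to all 12 libraries and 9309 genes, and genes with an adjusted p up to 0.05 were called. At D2, 7 of the 10 genes were called lower, against 6.16% of all genes tested. At D4, 8 were lower, against 12.5% of all genes, and 1 was higher, against 12.9%. At D6, 9 were lower, against 18.7% of all genes, and 0 were higher by limma-voom, also at an unadjusted p under 0.05, against 19%. The median log2 change of the 10 genes was -0.36 by D2, -0.53 by D4 and -0.81 by D6, where the median of all genes was 0.0036. Of the 81 RP genes, 75 were lower at D6, with a median of -0.57.

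**Figure D1:**
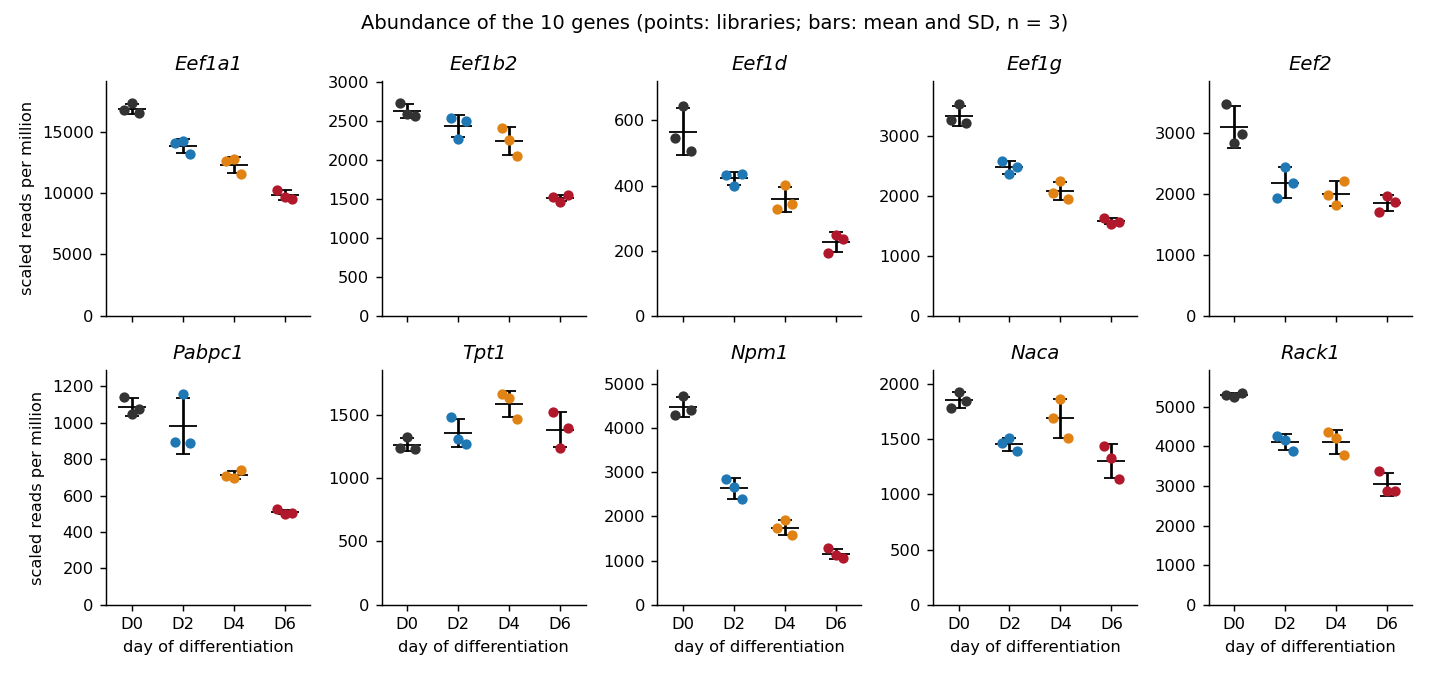
Level of each of the 10 mRNAs in CPM (vertical axis, from 0) at D0, D2, D4 and D6, with points for single libraries and bars for the mean ± SD of 3 libraries. The D6 points lie below all D0 points for every gene except Tpt1, a comparison of points that was not made over all genes. Npm1 drops from a mean of 4478 to 1154 CPM.

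Eef1a1, the carrier of aminoacyl-tRNA and the most abundant of the 10 mRNAs on every day, stood at 16795, 17320.0 and 16488 CPM on D0 and 14064, 14206 and 13159 on D2. Eef1a1 then held 12593, 12769 and 11533 CPM on D4 and 10263, 9689.8 and 9545 on D6. The D6 libraries lay below the D4 libraries and these below the D0 libraries, with no overlap. The log2 change was -0.29 (SE 0.048, adjusted p = 7.1e-06) by D2 and -0.46 (SE 0.044, adjusted p = 3.8e-13) by D4. By D6 it was -0.78 (SE 0.045, adjusted p = 4.1e-23). With only the reads that reached the 5′ part of the main transcript, the D2 and D4 calls of Eef1a1 were lost (-0.15, adjusted p = 0.66, and -0.13, adjusted p = 0.55) and the D6 change was -0.46 (adjusted p = 0.010). Its neuronal and muscle paralog Eef1a2 had 5 reads in all libraries together, 4 of them at D6. Eef2, the translocase, stood at 3477, 2837 and 2978 CPM on D0 and 1935, 2448 and 2174 on D2. Eef2 then held 1982, 1813 and 2216 CPM on D4 and 1701, 1965 and 1869.9 on D6. Its values fell early, with -0.47 (SE 0.09, adjusted p = 8.4e-05) at D2 on the log2 scale and -0.72 (SE 0.08, adjusted p = 3e-11) at D6, and the step from D4 to D6 was -0.11 (SE 0.089, adjusted p = 0.52).

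The 3 subunits of the eEF1B exchange complex all fell. Eef1b2, the subunit that carries nucleotide exchange, stood at 2727, 2591 and 2559.7 CPM on D0 and 2544, 2273 and 2495 on D2. Eef1b2 then held 2410.3, 2257 and 2051 CPM on D4 and 1526, 1462 and 1546 on D6. In CPM every D2 library lay below every D0 library, and the D2 change was -0.12 (SE 0.081, adjusted p = 0.41). As percent of kept reads, without scaling, the libraries overlapped, with 0.240 ± 0.0111 on D0 and 0.251 ± 0.0169 on D2. At D4 its log2 change was -0.24 (adjusted p = 0.008), a call lost in 5 of 28 alternatives. Among these it was -0.18 (adjusted p = 0.084) without D4 replicate 3, -0.13 (adjusted p = 0.073) with total reads and -0.16 (adjusted p = 0.34) after thinning to the smallest library. At D6 the change was -0.80 (SE 0.077, adjusted p = 3e-13). Eef1g, the subunit that anchors the complex, stood at 3266, 3529 and 3213 CPM on D0 and 2577, 2370.3 and 2485 on D2. Eef1g then held 2056, 2243 and 1952 CPM on D4 and 1633, 1536 and 1568 on D6. It was lower on each day, by -0.44, -0.68 and -1.09 (SE 0.074, adjusted p = 2.2e-19) on the log2 scale. With reads that reached the 5′ part, the D2 call of Eef1g was lost (-0.40, adjusted p = 0.057). Eef1d, the second exchange subunit and the least abundant of the 10 mRNAs, stood at 546, 645 and 506 CPM on D0 and 431, 399 and 435 on D2. Eef1d then held 329, 402 and 343 CPM on D4 and 193, 249 and 236 on D6. Its D6 change of -1.30 (SE 0.13, adjusted p = 2.8e-12) left 0.406-fold (95% interval 0.337 to 0.489) of the D0 level. The D2 call of Eef1d (-0.43, adjusted p = 0.031) was lost in 18 of 28 alternatives, among them each of those without D0 replicate 2 (-0.32, adjusted p = 0.19), D2 replicate 1, 2 or 3 (-0.44, -0.38 and -0.45) and D6 replicate 1, 2 or 3 (-0.38 each).

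Npm1 stood at 4290.2, 4730.0 and 4414 CPM on D0 and 2853, 2655 and 2392 on D2. Npm1 then held 1740.1, 1926 and 1576 CPM on D4 and 1280.2, 1118 and 1063 on D6. No library of a later day reached the D0 range, and the log2 change was -0.78 (SE 0.079, adjusted p = 6e-12) by D2 and -1.37 (SE 0.074, adjusted p = 4.9e-24) by D4. By D6 it had reached -1.97 (SE 0.081, adjusted p = 2.9e-30). Pabpc1, the major cytoplasmic poly(A)-binding protein, stood at 1142, 1048 and 1073 CPM on D0 and 894, 1161 and 890.4 on D2. Pabpc1 then held 708, 697 and 739 CPM on D4 and 524, 501 and 506 on D6. Its D2 libraries overlapped the D0 libraries (-0.13, SE 0.11, adjusted p = 0.50), and it was lower at D4 (-0.60, SE 0.10, adjusted p = 3.1e-06) and at D6 (-1.09, SE 0.11, adjusted p = 3.2e-13). With the few reads that reached the 5′ part of its main transcript (1 to 48 per library), neither was called (0.11, adjusted p = 0.91, at D4 and -1.85, adjusted p = 0.059, at D6).

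Rack1, a scaffold protein of the small ribosomal subunit, stood at 5291, 5249 and 5361 CPM on D0 and 4276, 4158 and 3888 on D2. Rack1 then held 4354, 4204 and 3777 CPM on D4 and 3374, 2884 and 2876 on D6. Its log2 change was -0.37 by D2, -0.38 by D4 and -0.82 (SE 0.063, adjusted p = 2.7e-17) by D6. Naca, the alpha subunit of the nascent polypeptide-associated complex at the ribosomal exit tunnel, stood at 1784, 1928 and 1844 CPM on D0 and 1463, 1507 and 1392 on D2. Naca then held 1690.1, 1862 and 1512 CPM on D4 and 1437, 1326 and 1139 on D6. It was lower at D2 (-0.35, SE 0.097, adjusted p = 0.01), a call lost in 8 of 28 alternatives, among them without D2 replicate 3 (-0.32, adjusted p = 0.085). It overlapped D0 at D4 (-0.14, SE 0.083, adjusted p = 0.21), where reads that reached the 5′ part gave -0.43 (adjusted p = 0.0067), and was lower at D6 (-0.52, SE 0.087, adjusted p = 1.2e-06), which among the 9 genes that fell was the smallest change. Tpt1 stood at 1238, 1325 and 1230.5 CPM on D0 and 1479.6, 1311 and 1268 on D2. Tpt1 then held 1661, 1631 and 1466 CPM on D4 and 1519, 1239 and 1392 on D6. All D4 libraries lay above all D0 libraries (0.31, SE 0.087, adjusted p = 0.0046). This call was lost after thinning to the smallest library (0.30, adjusted p = 0.11) and with reads that reached the 5′ part (0.11, adjusted p = 0.51). The D2 and D6 libraries overlapped those of D0, with 0.11 (SE 0.089, adjusted p = 0.37) and a 95% interval of -0.072 to 0.28 at D6. With total reads in place of the scaling factors, which moved the median of all genes to 0.13 at D2 and 0.26 at D6, the change of Tpt1 was 0.25 (adjusted p = 0.032) at D2 and 0.36 (adjusted p = 3.2e-05) at D6. With reads of mapping quality 10 or more the D6 change was 0.20 (adjusted p = 0.025).

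**Figure D2:**
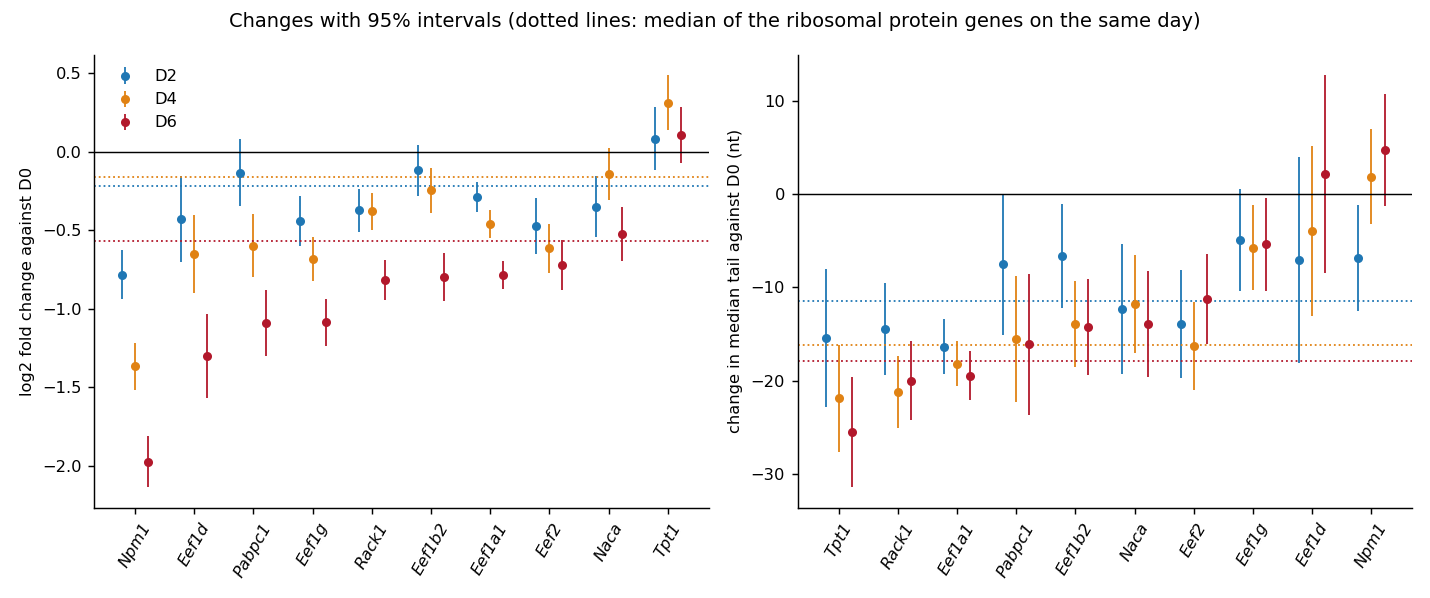
Change from D0 of each of the 10 genes at D2, D4 and D6 with 95% intervals from limma, as log2 change of abundance (left) and as change of the median tail in nt (right), with dotted lines at the median of the RP genes on the same day. Abundance intervals at D6 lie below 0 for all genes but Tpt1, and the median tail at D6 moves furthest in Tpt1 (-25.5 nt) and least in Eef1d (2.11 nt).

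Steps between neighbouring later days were fitted too. From D2 to D4, 3 genes were lower, Eef1a1 (-0.17), Npm1 (-0.58) and Pabpc1 (-0.47 on the log2 scale), against 1.07% of all genes. From D4 to D6, 8 genes were lower, all except Eef2 and Tpt1, against 4.34% of all genes. Rack1 moved by -0.0077 from D2 to D4 (adjusted p = 0.98) and by -0.44 from D4 to D6 (adjusted p = 2.3e-06). The order of the levels changed between D0 and D6. At D0 the order was Eef1a1, Rack1, Npm1, Eef1g, Eef2, Eef1b2, Naca, Tpt1, Pabpc1 and Eef1d, and of the neighbours in it only Eef1g and Eef2 had overlapping library ranges. At D6 the order was Eef1a1, Rack1, Eef2, Eef1g, Eef1b2, Tpt1, Naca, Npm1, Pabpc1 and Eef1d, with overlapping ranges from Eef1g through Eef1b2, Tpt1 and Naca to Npm1. Npm1 thus went from the third place to the eighth, and Tpt1 from the eighth to the sixth.

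Tails became shorter in most of the 10 mRNAs while their levels fell, with a gain in tails of 30 to 90 nt, the class centred near 60 nt. Over all reads of the 10 genes this class held 39.6 ± 2.00 percent of the reads on D0, 49.2 ± 0.124 on D2, 51.0 ± 1.28 on D4 and 51.0 ± 1.23 on D6, and without Eef1a1 42.7 ± 2.32 percent on D0, 49.4 ± 0.335 on D2, 51.2 ± 1.16 on D4 and 50.5 ± 1.57 on D6 (mean ± SD, n = 3). Over the RP reads the class held 42.5 ± 2.25 percent on D0, 50.3 ± 0.391 on D2, 53.5 ± 1.20 on D4 and 54.1 ± 0.505 on D6, and over the reads of all other genes 36.4 ± 1.38 percent on D0, 38.01 ± 0.670 on D2, 37.0 ± 0.693 on D4 and 34.1 ± 0.758 on D6. The mRNAs of Eef1a1, Eef2, Eef1b2, Rack1, Naca and Tpt1 gained in this class at D6, and those of Eef1g, Eef1d, Npm1 and Pabpc1 did not pass the test.

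Shares and medians were compared with limma on 1 value per gene and library, weighted by reads, over 4841 genes. In the share of tails of 30 to 90 nt, 4 of the 10 genes were called higher at D2, against 1.90% of all genes, and 6 at D4, against 2.54%. At D6, 6 were higher and 0 lower, against 2.11% and 0.806% of all genes, and with an unadjusted p under 0.05 limma gave 8 and 1. The median change of the 10 genes at D6 was 8.50 points, with -2.31 points over all genes and 12.02 points over RP genes, of which 73 of 81 were higher. The median tail was called lower in 4 genes by D2, 7 by D4 and 7 by D6, against 1.57%, 2.56% and 2.56% of all genes. Without D0 replicate 1 the D2 count of shorter medians was 7, and without D2 replicate 2 it was 2.

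**Figure D3:**
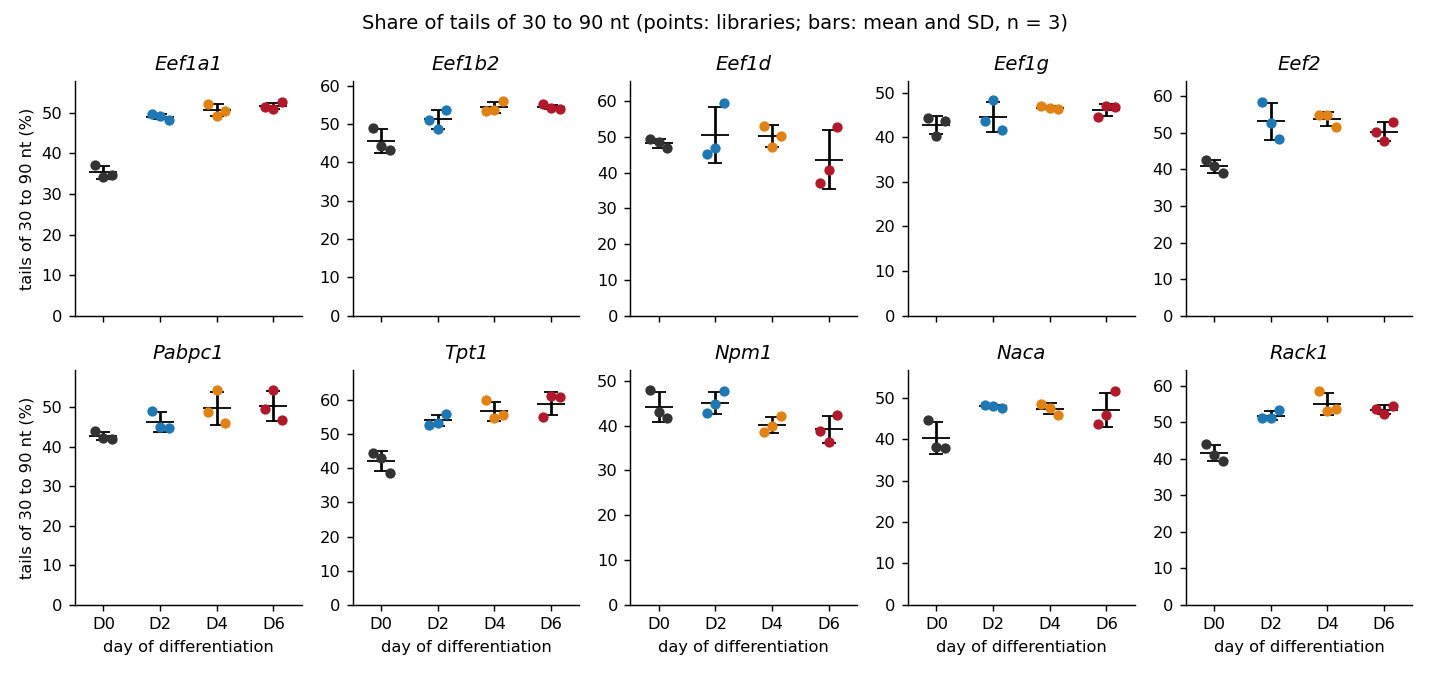
Percentage of each gene's reads with a tail of 30 to 90 nt at D0, D2, D4 and D6, with points for single libraries and bars for the mean ± SD of 3 libraries. Eef1a1 moves from a mean of 35.3% at D0 to 51.7% at D6 and Tpt1 from 42.1% to 59.0%, while Npm1 moves from 44.2% to 39.2%.

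Eef1a1 had 37.1, 34.2 and 34.7 percent of its tails on D0, 49.6, 49.3 and 48.3 on D2, 52.3, 49.3 and 50.5 on D4 and 51.5, 50.9 and 52.6 on D6 in the 30 to 90 nt class. Every library of D2, D4 and D6 lay above every D0 library, and the change was 13.9 (SE 1.20, adjusted p = 1.7e-24) points at D2 and 16.4 (SE 1.06, adjusted p = 6.5e-43) points at D6. Its median tail was 104, 107 and 107 nt on D0, 88.8, 88.9 and 90.7 on D2, 85.1, 88.7 and 88.1 on D4 and 86.5, 87.0 and 85.4 on D6. The D6 change was -19.5 (SE 1.29, adjusted p = 1.8e-14) nt, with most of it reached by D2 (-16.4 nt). Eef2 had 42.6, 40.8 and 39.1 percent of its tails on D0, 58.4, 52.7 and 48.3 on D2, 54.8, 54.9 and 51.5 on D4 and 50.3, 47.7 and 52.9 on D6 in the class. The change was 11.5 (SE 2.12, adjusted p = 1.9e-05) points at D2 and 9.15 (SE 1.76, adjusted p = 1.6e-05) at D6. The Eef2 libraries of all later days lay above those of D0, and the median tail of Eef2 was 99.3 ± 2.09 nt on D0, 84.9 ± 4.21 on D2, 82.3 ± 4.23 on D4 and 87.7 ± 2.53 on D6, a D6 change of -11.2 (SE 2.37, adjusted p = 0.0012) nt. The D2 change of the Eef2 median, -13.9 nt (adjusted p = 0.0026), was -13.01 nt without D2 replicate 2 (adjusted p = 0.17).

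Of the 3 subunits of eEF1B, Eef1b2 was called higher in this share at D6 and Eef1g and Eef1d were not, a difference that was not tested. Eef1b2 had 49.0, 44.2 and 43.3 percent of its tails at 30 to 90 nt on D0, 51.1, 48.7 and 53.7 on D2, 53.4, 53.6 and 56.0 on D4 and 55.1, 54.2 and 54.0 on D6, with a change of 5.69 (SE 2.07, adjusted p = 0.20) points by D2. By D4 the change was 9.06 (SE 1.70, adjusted p = 8.9e-06) and by D6 8.98 (SE 1.91, adjusted p = 0.00018), which after thinning was 8.31 (adjusted p = 0.075). Without D0 replicate 1 its D2 change was 7.26 points (adjusted p = 0.0051). Its D2 libraries overlapped those of D0 and its D4 and D6 libraries lay above them. Eef1g had 44.2, 40.3 and 43.6 percent on D0, 43.5, 48.3 and 41.7 on D2, 47.0, 46.5 and 46.3 on D4 and 44.5, 47.1 and 46.8 on D6. Its D6 libraries lay just above those of D0, with a change of 3.89 (SE 1.85, adjusted p = 0.35) points. Eef1d had 49.3, 48.6 and 46.9 percent on D0, 45.3, 46.9 and 59.5 on D2, 53.2, 47.1 and 50.3 on D4 and 37.0, 40.8 and 52.9 on D6. Its libraries overlapped on every day, with a D6 change of -4.24 (SE 3.68, adjusted p = 0.70) points. The 95% interval for Eef1d at D6 was -11.5 to 3.00 points, which leaves a loss of several points within the interval.

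Tpt1, whose level was not called lower on any day, gained at D6 in tails of 30 to 90 nt by an amount near that of Eef1a1. Its share was 44.5, 43.1 and 38.7 percent on D0, 52.7, 53.4 and 55.9 on D2, 59.9, 54.8 and 55.6 on D4 and 54.9, 61.1 and 60.9 on D6. There was no overlap between D0 and any later day, and the change was 12.004 (SE 2.64, adjusted p = 0.00066) points by D2. It was 14.2 (SE 2.04, adjusted p = 8.3e-10) by D4 and 17.3 (SE 2.10, adjusted p = 2.1e-13) by D6. The Tpt1 median tail was 94.0, 96.9 and 102 nt on D0, 86.2, 83.3 and 78.4 on D2, 71.0, 77.4 and 77.4 on D4 and 77.1, 68.2 and 73.1 on D6. Its D6 change was -25.5 (SE 2.92, adjusted p = 1.4e-08) nt. The D2 change of that median, -15.4 nt (adjusted p = 0.012), was not called without D0 replicate 3 (-13.3 nt, adjusted p = 0.075), D2 replicate 2 (-16.1 nt, adjusted p = 0.15) or D2 replicate 3 (-13.5 nt, adjusted p = 0.22). Rack1 had 44.0, 41.2 and 39.5 percent of its tails on D0, 51.1, 51.1 and 53.4 on D2, 58.6, 53.1 and 53.7 on D4 and 53.7, 52.2 and 54.6 on D6 in the class, again with no overlap with D0. Its D6 change was 11.9 (SE 1.52, adjusted p = 2.6e-12) points, with a median tail that moved by -20.00 (SE 2.11, adjusted p = 1.9e-09) nt. Naca had 44.7, 38.3 and 37.8 percent on D0, 48.3, 48.1 and 47.6 on D2, 48.5, 47.7 and 46.0 on D4 and 43.7, 45.9 and 51.8 on D6. Its D6 libraries overlapped those of D0. The D6 change of Naca, 7.07 (SE 2.03, adjusted p = 0.021) points, lost its call in 9 of 26 alternatives, among them without D0 replicate 2 (6.00 points, adjusted p = 0.17), D0 replicate 3 (6.04, adjusted p = 0.14), D6 replicate 2 (7.89, adjusted p = 0.073) or D6 replicate 3 (5.14, adjusted p = 0.35). Its D4 change, 7.35 points (adjusted p = 0.0051), lost its call in 5 of 26, among them without D0 replicate 2 (6.28), D0 replicate 3 (6.33) or D4 replicate 2 (7.02). Its D2 change, 8.07 points (adjusted p = 0.06), was 9.92 without D0 replicate 1 (adjusted p = 9.0e-04).

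Npm1, the gene with the largest fall in level, had no called change in tails of 30 to 90 nt. Its share was 47.9, 43.0 and 41.6 percent on D0, 42.7, 44.8 and 47.6 on D2, 38.5, 39.9 and 42.04 on D4 and 38.7, 36.4 and 42.5 on D6. The libraries of D0 overlapped those of every later day, and the D6 change was -4.99 (SE 2.07, adjusted p = 0.24) points with a 95% interval of -9.06 to -0.925. After thinning to the smallest library the D6 change was -9.24 points (adjusted p = 0.043). Its median tail was 87.9, 95.3 and 97.5 nt on D0, 91.5, 85.3 and 86.4 on D2, 94.98, 95.1 and 97.2 on D4 and 99.3, 101 and 95.1 on D6. Its D6 change was 4.74 (SE 2.97, adjusted p = 0.46) nt, with a median change of 4.81 nt over all genes. Tails over 150 nt made up 18.5 ± 1.62 percent of the Npm1 reads on D0, 18.6 ± 1.76 on D2, 23.4 ± 1.65 on D4 and 25.6 ± 1.74 on D6 (mean ± SD, n = 3). Every D6 library lay above every D0 library, and this difference reached the smallest p that 3 against 3 libraries allow (two-sided exact permutation test, p = 0.1). Over the reads of genes outside the 10 and the RP genes this class also rose without overlap, from 23.9 ± 1.10 percent on D0 to 28.6 ± 0.703 on D6. Over the RP reads it fell from 15.9 ± 1.35 to 11.1 ± 0.311 percent. In Eef1a1 the same class held 16.9 ± 1.19 percent on D0, 12.7 ± 0.334 on D2, 12.3 ± 0.739 on D4 and 12.3 ± 0.371 on D6, and the D6 libraries of Eef1a1, Eef1b2, Eef2, Tpt1 and Rack1 lay below those of D0 in it. This class was compared gene by gene for the 10 genes only, so that no share over all genes stands beside it. Pabpc1 had 44.0, 42.1 and 42.1 percent of its tails at 30 to 90 nt on D0, 49.1, 44.9 and 44.8 on D2, 48.8, 54.2 and 46.1 on D4 and 49.7, 54.4 and 46.8 on D6. Its libraries of all later days lay above those of D0, the D6 change was 8.03 (SE 2.75, adjusted p = 0.094) points, and without D0 replicate 1 it was 8.62 points (adjusted p = 0.045). The Pabpc1 median tail was 96.2 ± 2.94 nt on D0, 88.0 ± 2.71 on D2, 80.0 ± 5.59 on D4 and 80.0 ± 1.60 on D6, a D6 change of -16.1 (SE 3.73, adjusted p = 0.0038) nt. That call was lost after thinning (-11.6 nt, adjusted p = 0.41), with the largest run of each day (-16.2 nt, adjusted p = 0.067) and with reads that reached the 5′ part (-16.4 nt, adjusted p = 0.64). The D6 call of the Naca median was lost after thinning (-9.51 nt, adjusted p = 0.23). At D4 the changes in median of Pabpc1 and Naca, -15.5 and -11.8 nt, were called with all libraries and not without D4 replicate 2 (-13.4 nt, adjusted p = 0.059, and -10.4 nt, adjusted p = 0.075).

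**Figure D4:**
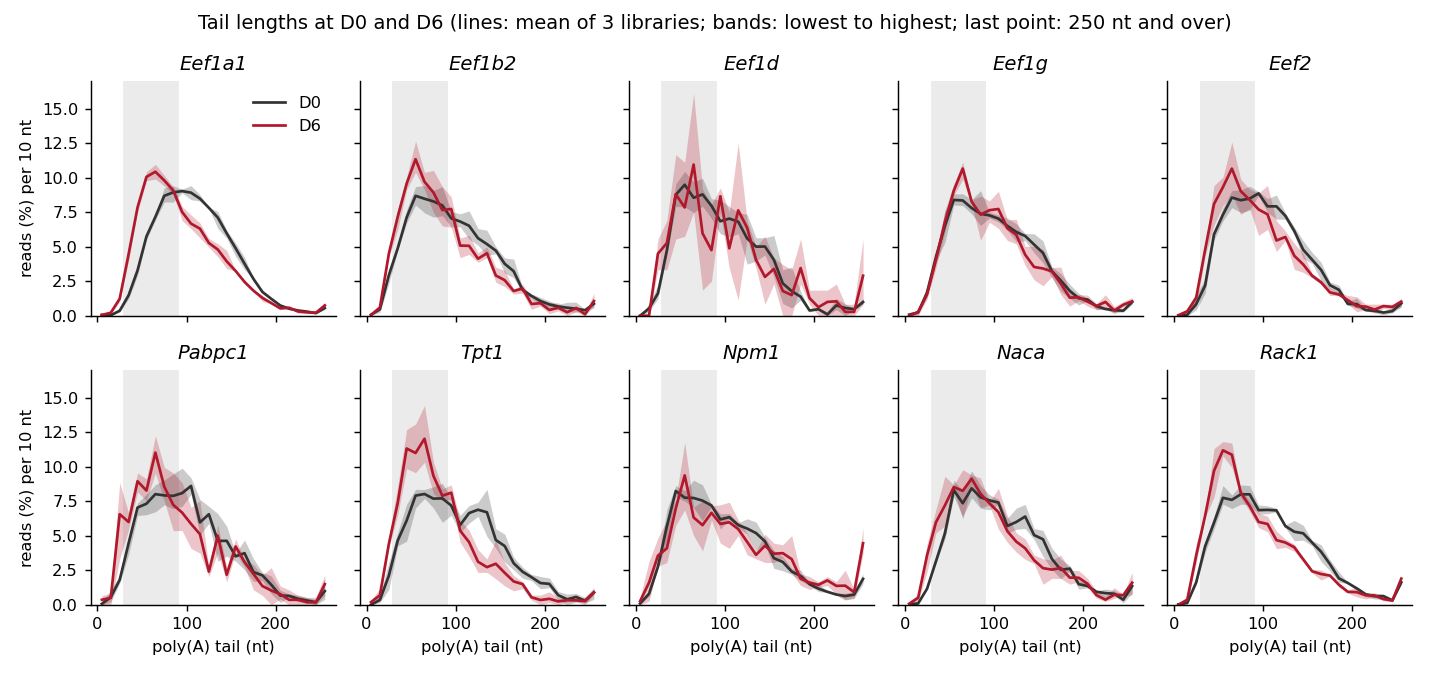
Share of each gene's reads (vertical axis, percent) in 10 nt classes of tail length (horizontal axis, nt), as the mean of 3 libraries at D0 and at D6, with the range of the libraries as a band. The D6 curve of Eef1a1, Tpt1 and Rack1 stands above the D0 curve in the 30 to 90 nt part, and the last Npm1 point, for tails of 250 nt and over, is higher at D6 than at D0.

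Tails under 30 nt were rare in these mRNAs and became less rare in some. At D2, 0 of the 10 genes passed the limma test, as did 0 of all 4841 genes, and 3 were higher at an unadjusted p under 0.05. With the share as log2 odds or with a limit of 35 nt, 1 passed. At D4, 3 genes (Eef1a1, Rack1 and Tpt1) were higher, against 0.702% of all genes, and at D6, 4 genes (with Naca in addition), against 1.09%. Eef1a1 had 0.515, 0.494 and 0.357 percent of its tails under 30 nt on D0, 1.503, 1.43 and 1.06 on D2, 1.79, 1.80 and 1.52 on D4 and 1.81, 1.35 and 1.34 on D6. Each later day lay above D0 without overlap, with a D6 change of 1.01 (SE 0.134, adjusted p = 0.0067) points. Rack1 went from a mean of 1.78% to 3.94%, Tpt1 from 2.45% to 5.28% and Naca from 1.29% to 4.16% at D6. Pabpc1 went from 2.42% to 7.43% with no overlap and did not pass the test (adjusted p = 0.23), on 6 to 19 such reads per library over the 12 libraries. These calls rest on few reads. At D6 the calls of Tpt1, Naca, Rack1 and Eef1a1 were lost in 16, 11, 7 and 4 of 26 alternatives, and at D4 those of Rack1, Tpt1 and Eef1a1 in 15, 13 and 3. With 1 library left out the count was 1 to 3 at D4 and 1 to 4 at D6. At D4 it was 1 without D0 replicate 1, D0 replicate 2 or any of the 3 D4 replicates, and at D6 it was 1 without D0 replicate 2 or D6 replicate 2 and 2 without D0 replicate 1, D0 replicate 3, D2 replicate 3 or D6 replicate 1.

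Median tails were also taken per sequencing run, with 3 runs on D0 and 4 on D6. For Eef1a1 they were 105 to 106 nt on D0 and 85.4 to 87.3 nt on D6, for Rack1 97.2 to 101 nt and 76.9 to 82.3 nt, and for Tpt1 95.8 to 98.8 nt and 61.4 to 82.1 nt. Since the libraries of a day share their runs, the runs are not further replicates. Run medians were compared for the selected genes only, so that no share over all genes or RP genes stands beside them. In Eef1a1, Eef1b2, Eef2, Pabpc1, Tpt1 and Rack1 every D6 run lay below every D0 run. The runs of both days overlapped in the other 4 genes. Among them were Naca, whose D6 change in median was called (-13.95 nt), with 93.0 to 105 nt on D0 and 86.0 to 98.8 nt on D6, and Npm1, with 92.6 to 94.4 nt and 94.1 to 116 nt. Spike-in RNAs with poly(A) tails were read mainly in the replicate 1 libraries. Between D0 and D6 their median tails went from 20.7 to 18.96 nt (RNA-Spike-16), 36.9 to 37.2 nt (RNA-Spike-32), 59.3 to 59.03 nt (RNA-Spike-64-A), 61.6 to 62.7 nt (RNA-Spike-128-A) and 105 to 113 nt (RNA-Spike-256-A), on 38 to 217 reads each. At D2 and D4 they were 19.4 and 25.4, 31.7 and 34.8, 63.6 and 63.5, 64.6 and 62.5, and 117 and 107 nt, in the same order. The paper's list of spike-in oligos names none of 128 or 256, so that the intended tails of these were not known.

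Against the RP mRNAs, which make up most of the TOP class, the changes of the 10 genes at D6 were compared. For abundance the same fit was run with the RP reads of a library as its size, and for tails the RP value of the library was subtracted. Relative to RP mRNAs, 7 of the 10 genes were lower in abundance at D6 (against 7.46% of all genes) and 1 was higher (against 41.6%). Of the 81 RP genes taken singly, 27 were themselves called lower and 29 higher than the RP reads together. Npm1 (-1.40, SE 0.058, adjusted p = 3.7e-22), Eef1d (-0.74, SE 0.13, adjusted p = 2.1e-05), Eef1g (-0.51, SE 0.052, adjusted p = 2.1e-10) and Pabpc1 (-0.51, SE 0.099, adjusted p = 5.2e-05) fell by more than RP mRNAs. Rack1, Eef1b2 and Eef1a1 fell by slightly more, with -0.23, -0.21 and -0.20 on the log2 scale (adjusted p = 1.3e-06, 0.0019 and 1.1e-07). Tpt1 was higher (0.68, SE 0.06, adjusted p = 3.4e-12). The difference from RP mRNAs was not called for Naca (95% interval -0.075 to 0.18) and Eef2 (-0.30 to 0.053), and Eef2 was called without D0 replicate 2 (-0.22, adjusted p = 0.037) or D6 replicate 2 (-0.25, adjusted p = 0.048).

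In the share of tails of 30 to 90 nt, the change at D6 was larger than that of RP mRNAs in 2 of the 10 genes (against 0.372% of all genes) and smaller in 4 (against 39.0%), a share near that of all genes. Of the 81 RP genes taken singly, 15 were called larger and 16 smaller than the RP reads together. The median difference from RP reads was -3.22 points over the 10 genes and -14.1 points over all genes. Eef1a1 gained 4.66 (SE 0.628, adjusted p = 1.8e-11) points more than the RP reads and Tpt1 5.43 (SE 1.79, adjusted p = 0.011). The Tpt1 difference was not called without D0 replicate 3 (4.29, adjusted p = 0.079), D6 replicate 2 (4.04, adjusted p = 0.13) or D6 replicate 3 (4.90, adjusted p = 0.052). Npm1 (-16.8, SE 1.61, adjusted p = 6.9e-23), Eef1d (-16.1, SE 3.57, adjusted p = 0.00013) and Eef1g (-7.92, SE 1.46, adjusted p = 2.4e-06) had smaller changes than the RP reads. For Naca the difference was -4.72 (SE 1.69, adjusted p = 0.019), and this was not called without D0 replicate 1 (-3.95, adjusted p = 0.067), D6 replicate 1 (-3.46, adjusted p = 0.13) or D6 replicate 2 (-4.20, adjusted p = 0.11). For Rack1 (-1.99 to 2.32 points), Eef1b2 (-5.76 to 0.240), Eef2 (-5.18 to 0.263) and Pabpc1 (-8.57 to 1.22) the 95% interval of the difference included 0. In the median tail against the RP reads, limma called 4 of the 10 genes higher and 2 lower. Of all 4841 genes 1787 and 21 were, and of the 81 RP genes 15 and 16. Higher were Npm1 (22.3 nt), Eef1d (19.6), Eef1g (12.1) and Eef2 (5.98, adjusted p = 0.020). Lower were Tpt1 (-8.00 nt, adjusted p = 0.013) and Eef1a1 (-2.00, adjusted p = 0.047).

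**Figure D5:**
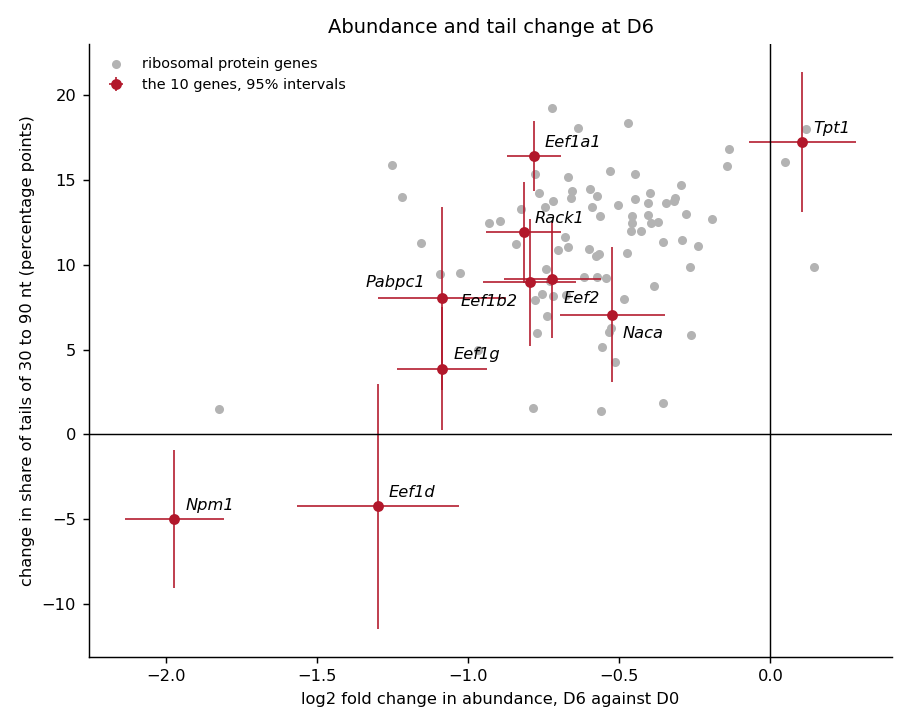
Change from D0 to D6 in abundance (horizontal axis, log2) and in the share of tails of 30 to 90 nt (vertical axis, points) for the 10 genes, with 95% intervals from limma, and for the RP genes as grey points. Npm1 and Eef1d lie at the lower left (log2 change -1.97 and -1.30, share -4.99 and -4.24 points), away from most RP genes, and Tpt1 lies at the top with a log2 change of 0.11.

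Most reads of each gene came from 1 annotated transcript. With the reads of that transcript alone, the D2 abundance calls of Eef1d (-0.30, adjusted p = 0.25) and Naca (-0.29, adjusted p = 0.058) were lost, and no other call of the 10 genes in abundance or tails changed. Eef1a1 (chr9:78478449-78481724), Eef2 (chr10:81176631-81182498) and Pabpc1 (chr15:36595661-36608973, mm10) had 99.99% to 100% of their reads on a single transcript. Npm1 had a longer transcript (chr11:33152287-33163206, 79.8% of its reads) and a shorter one with a nearer 3′ end (chr11:33154927-33163077, 15.1%). The share of the shorter form was 14.3 ± 1.74 percent on D0, 17.8 ± 3.06 on D2, 16.2 ± 0.472 on D4 and 13.3 ± 0.592 on D6, a D6 difference within the spread (two-sided exact permutation test, p = 0.5). Its median tail was 86.3 ± 0.263 nt on D0, 83.8 ± 5.02 on D2, 82.4 ± 2.35 on D4 and 87.7 ± 1.63 on D6, against 94.6 ± 6.89 nt on D0, 88.2 ± 4.44 on D2, 98.6 ± 1.62 on D4 and 101 ± 1.54 on D6 in the longer form. Eef1g reads on a retained-intron transcript (chr19:8972404-8978479, 12.7% of its reads) made up 15.6 ± 3.65 percent on D0, 13.1 ± 1.20 on D2, 9.11 ± 1.90 on D4 and 9.32 ± 2.49 on D6, with every D6 library below every D0 library (two-sided exact permutation test, p = 0.1, the smallest possible). Of those reads 0.153% had a mapping quality of at least 10, so that they cannot be told from reads of the main transcript. The same holds for most reads of the second transcripts of Naca (7.17% of its reads, 6.15% of them at mapping quality 10 or more) and Rack1 (7.55%, of them 6.70%). Eef1d was spread over 3 coding transcripts with 71.0%, 9.38% and 7.05% of its reads, of which 84.1%, 38.5% and 4.13% had a mapping quality of at least 10, so that its spread over these forms is uncertain.

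A second 3′ end held 9.18% of the Eef2 reads, with a mean of 8.36% at D0 and 9.69% at D6 and a median tail of 87.1 nt, against 92.1 nt at the main end. In Eef1a1 the second end held 3.87% of the reads, with a median tail of 97.6 nt against 95.8 nt. In Pabpc1 it held 2.84% (99 reads over all days), with 109 nt against 88.5 nt, and in the main Eef1d transcript 3.61% (44 reads over all days), with 118 nt against 85.8 nt. In the other 6 genes it held under 1% of the reads of the main transcript. Reads that reached the 5′ part of their transcript, within 25 bases of the commonest first base, were 41.2 ± 15.5 percent of the Eef1a1 reads on D0, 48.7 ± 14.01 on D2, 65.6 ± 12.1 on D4 and 54.1 ± 15.3 on D6. Among these near-complete Eef1a1 reads the median tail was 104 ± 0.873 nt on D0, 89.2 ± 2.11 on D2, 87.7 ± 2.25 on D4 and 85.3 ± 0.655 on D6, and among the shorter reads 107 ± 2.75 nt on D0, 90.1 ± 0.402 on D2, 86.6 ± 1.47 on D4 and 87.5 ± 1.28 on D6. The share of near-complete reads over the main transcripts of all genes was 62.3 ± 6.13 percent on D0, 66.2 ± 5.75 on D2, 72.9 ± 5.48 on D4 and 65.3 ± 6.86 on D6, with overlapping libraries. In Eef2, near-complete reads numbered 22 ± 19 per library at D0, and its changes could not be followed in them.

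The proteins that work with these factors were examined through a list of 30 genes for elongation, termination, the nascent chain complex, poly(A) binding and close paralogs. Of 25 tested, 11 were lower and 3 higher at D6, against 18.7% and 19% of all genes. In tails of 30 to 90 nt 0 of 21 were called by limma in either direction, against 2.11% higher and 0.806% lower over all genes, and 2 were lower where the unadjusted p was under 0.05. Eif5a, the hypusine-bearing elongation factor, stood at 1845 ± 259 at D0 and 703 ± 113 at D6 (log2 change -1.43, adjusted p = 2.9e-17) in CPM. Vars, the valyl-tRNA synthetase that binds the eEF1B complex, stood at 219 ± 6.23 at D0 and 82.4 ± 13.1 at D6 (log2 change -1.39, adjusted p = 5.1e-09). The termination factors Etf1 (-1.09) and Gspt1 (-0.85), the recycling factor Abce1 (-0.77) and the rescue factor Hbs1l (-0.52) were lower on the log2 scale, as were Npm3 (-1.06), a relative of nucleophosmin, and Btf3 (-0.44), the beta subunit of the nascent polypeptide-associated complex. Its paralog Btf3l4 was higher (0.37). Of the listed poly(A)-binding proteins and their partners, Pabpn1 and Pabpc1l had too few reads to be tested, and Paip2b (log2 change 0.23, adjusted p = 0.57) was not called. Pabpc4, a paralog of Pabpc1, was lower and stood at 246 ± 38.8 at D0 and 111 ± 11.2 at D6 (log2 change -1.12, adjusted p = 3.2e-07). The binding partners Paip1, which promotes translation, and Paip2, which displaces the protein from the tail, were higher, with 50.9 ± 8.05 at D0 and 119 ± 14.2 at D6 (log2 change 1.20, adjusted p = 9.1e-06) for Paip1 and 184 ± 5.55 at D0 and 264 ± 34.3 at D6 (log2 change 0.49, adjusted p = 0.0051) for Paip2.

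Of 16 other non-ribosomal TOP genes tested, 10 were lower and 3 higher in abundance at D6, against the same shares of all genes, with a median log2 change of -0.45. In tails of 30 to 90 nt, 1 of them was higher and 2 lower, against 2.11% and 0.806% of all genes, with a median change of 0.625 points. Eif3k, a subunit of initiation factor eIF3, gained 16.8 points (adjusted p = 7.6e-05), Ppia, the peptidyl-prolyl isomerase cyclophilin A, moved by -4.50 points (adjusted p = 0.046), and Vim, the intermediate filament vimentin, moved by -11.2 points (adjusted p = 0.0043) with a log2 change in abundance of 2.22. These 3 were picked for their calls.

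Outside the 10 genes and the named RP genes, the genes whose log2 CPM followed the mean of the 10 most closely over the 12 libraries were Nap1l1, a nucleosome assembly protein (r = 0.987), Asns, asparagine synthetase (r = 0.986), Hsp90ab1, a cytosolic chaperone (r = 0.984), and the loci Rps2-ps10 (r = 0.983) and Gm10275 (r = 0.9799), of 971 genes compared. Of these, Nap1l1 is itself on the list of other non-ribosomal TOP genes. In the share of tails of 30 to 90 nt the closest of 959 genes were Rps26-ps1 (r = 0.970), Rps3a1, a ribosomal protein gene whose symbol the naming rule did not cover (r = 0.965), Rpl10-ps3 (r = 0.889), Mdk, the growth factor midkine (r = 0.885), and Atp5k, a subunit of ATP synthase (r = 0.884). The libraries of a day share their runs, and the coefficients describe a course over 4 days. The loci named as pseudogenes can share reads with their parent genes.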

How the data were processed

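Native RNA of 12 P19 libraries (D0, D2, D4 and D6, 3 each) was read on R9 nanopore flow cells. For the authors' files, Guppy called the bases and Minimap2 (version 2.20 in the submitters' processing notes) placed reads on mm10 transcripts of GENCODE vM17. Nanopolish then gave the tail lengths, and Deeplexicon split the reads by barcode. The deposited table holds 1 line per alignment, with the tail length in nucleotides, the aligner's mapping quality score, and the barcode confidence as a fraction for each read. None of these values was normalized. A second deposited table holds the log2 fold changes and adjusted p-values of the authors' own DESeq2 comparisons and was not used.

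The table had 6306434 lines. A library was missing in 289262 of them, and 67 were malformed. Lines with the tag PASS (4673531, or 77.7% of the assigned ones) were kept on nuclear mRNA that is not of pseudogene biotype. Reads were tallied per gene and library here, so that no deposited count was used. Abundance was fitted with limma-voom (limma 3.58.1, R 4.3.3) on all 12 libraries, with trimmed-mean scaling (30% of ratios and 5% of levels trimmed), a pseudocount of 0.5 reads and at least 30 reads over all libraries. Tail shares (under 30 nt, 30 to 90 nt) and medians were fitted with limma on genes that averaged 10 reads or more in a library, weighted by reads with a variance trend. P-values were adjusted by Benjamini-Hochberg over all genes of a contrast and called at 0.05. Single values were compared by a two-sided exact permutation test, which with 3 against 3 libraries cannot go below 0.1. Tables were handled with Python 3.11.15, pandas 2.3.3, numpy 2.4.6 and scipy 1.17.1. The procedures were tested on simulated data.

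The 10 genes, the lists of partner and other TOP genes and the markers were chosen with earlier results of these data known. All 10 genes are named, with transcripts that hold at least 5% of a gene's reads, partner genes called in abundance at D6 that averaged 20 reads or more in a library, and the 5 genes most alike in each measure with a mean of at least 50. Alternatives covered scaling, filters, pseudocount, mapping quality, pseudogene reads, repeated lines, transcripts, depth, barcode confidence, runs, weights, class limits, the replicate number as a block and each library left out. Near-complete reads, and the block and left-out libraries for the comparison with RP genes, were added after seeing the data. Reads were not corrected for 5′ truncation, tail intervals reflect the spread between libraries, and the depth of a gene (53 reads for Eef1d in the smallest case) limits the precision of its tails.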

Additional observations from a re-analysis of the deposited data

How the results depend on the processing

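The D6 fall in abundance was called in 9 genes under each left-out library. Over the left-out libraries the count of genes called lower in abundance was 5 to 7 at D2, 7 to 8 at D4 and 9 at D6, that of genes with a higher 30 to 90 nt share 4 to 6, 5 to 6 and 5 to 7, that of genes with a shorter median tail 2 to 7, 5 to 8 and 7, and that of genes with more tails under 30 nt 0, 1 to 3 and 1 to 4. Against RP genes the counts of lower genes were 7 to 8 in abundance and 3 to 4 in the 30 to 90 nt share. For tails under 30 nt the D4 count of 3 was 0 after thinning to the smallest library, with a limit of 25 nt or with only D0 and D4 in the fit, 1 with the largest run of each day or without weights, and 5 with a limit of 35 nt. The D6 count of 4 was 2 after thinning, at a barcode confidence of at least 0.9 or with the largest runs, 1 without weights, and 0 with a limit of 25 nt or with only D0 and D6. The calls over all genes fell too, from 34 at D4 to 0 after thinning (of 1839 genes), 0 with only D0 and D4 and 7 at 25 nt, and from 53 at D6 to 8, 27 with only D0 and D6 and 18. The D2 count of 0 was 1 with log2 odds or a limit of 35 nt.

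With near-complete reads of the main transcript, 2, 6 and 7 genes in place of 7, 8 and 9 were lower in abundance at D2, D4 and D6, while over all genes 135, 443 and 537 of 5161 were, in place of 573, 1167 and 1741 of 9309. Eef2 and Pabpc1 had 1 to 65 and 1 to 48 such reads per library. With these reads the sign turned for Eef2 abundance at D4 (0.59, adjusted p = 0.67), Pabpc1 abundance at D4 (0.11, adjusted p = 0.91), the Eef2 share of 30 to 90 nt at D4 (-3.21 points, adjusted p = 0.93) and the Eef2 median at D6 (1.05 nt, adjusted p = 0.99), by limma. Total reads without a scaling factor moved the median log2 change of all genes to 0.13, 0.12 and 0.26 at D2, D4 and D6, and the D6 calls over all genes to 2588 higher and 1162 lower, from 1771 and 1741.

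Libraries with the same replicate number correlated by -0.16 to 0.36 after removal of day means, above 0.1 in 9 of 18 pairs. The median was 0.10, against -0.022 for other numbers, and 8 of 12 libraries correlated best with their own number. These values do not settle whether the numbers mark a pairing. The main fits used none. With the replicate number as a block, the counts of genes were 7, 8 and 9 lower in abundance and 5, 6 and 6 higher in the 30 to 90 nt share at D2, D4 and D6. Over all genes 594, 992 and 1564 of 9309 were lower in abundance, and 95, 108 and 100 of 4841 were higher in the share. Of single calls, the block lost that of Tpt1 in tails under 30 nt at D4 and D6 (adjusted p = 0.13 each) and added those of Naca at D2 in the 30 to 90 nt share (8.20 points, adjusted p = 0.032) and the median (-12.4 nt, adjusted p = 0.029). Depth limits the tails of Eef1d, with 53 reads in its smallest library.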
